A study of Mus musculus with 31 samples.

Results

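The fractalkine receptor gene Cx3cr1, its ligand gene Cx3cl1 and 5 genes that mark macrophages (Aif1, Emr1, Mpeg1, Cd68 and Lyz2) were followed in masseter muscle (MM), a chewing muscle of the jaw, after injection of an irritant. These 7 genes were given by name and are 7 of the 22609 genes listed in every count table. Bulk RNA-seq libraries of MM were made from 31 wild-type male C57BL/6J mice, 1 library per mouse, and the methods describe the mice as adults of 2 to 4 months. The left MM was injected either with complete Freund's adjuvant (CFA), an emulsion with killed mycobacteria that provokes strong inflammation, or with collagenase type 2 (Col), an enzyme that breaks down the collagen of the extracellular matrix.

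The CFA experiment held 3 mice at 1d, 3 mice at 5d and 3 vehicle mice. The Col experiment held 4 mice each of the groups titled 1C and RPC at the low dose of 0.2U, 4, 3 and 4 mice titled 2d, 6d and 12d at the high dose of 10U, and 3 vehicle mice. The methods give 1d and 14d for the groups titled 2d and 12d, and the days of the titles are used here. Neither the titles nor the methods give the collection day of the vehicle mice or tell which 0.2U group belongs to which day, and phosphate-buffered saline was the vehicle. All 5 Col groups were compared with the same 3 vehicle mice.

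Fractalkine, the protein of Cx3cl1, is made by endothelium, neurons and other tissue cells, sits on the membrane on a mucin stalk and is released by the proteases ADAM10 and ADAM17. Its receptor CX3CR1, coupled to inhibitory G proteins, is carried by monocytes, many tissue macrophages and microglia, and guides their adhesion, patrolling and survival. The other genes encode IBA1 (Aif1), an actin-bundling protein of macrophages, an adhesion receptor of mature mouse macrophages (Emr1, today Adgre1), perforin-2 (Mpeg1), a pore-forming protein that attacks ingested bacteria, macrosialin (Cd68), a lysosomal glycoprotein, and lysozyme M (Lyz2), which digests bacterial walls and is also abundant in neutrophils. In bulk tissue, more cells of a type and more RNA per cell cannot be told apart.

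The libraries held 14843778 to 29076671 reads counted on genes, with a median of 20834472, and 10 reads stood for 0.344 to 0.674 CPM, the count scaled to the depth of its library. Values per mouse are CPM after TMM scaling over all libraries. Skeletal muscle markers were abundant in every library, although their summed level was 29290 to 60790 CPM at 2d and 31430 to 58030 CPM at 6d post-Col (10U) against 96550 to 150800 CPM in the Col vehicle mice. Salivary gland markers, from the gland that lies beside MM, ranged from 10.8 to 146600 CPM between libraries. The third vehicle mouse of each experiment stood apart in its neutrophil markers, with summed levels of 1001 CPM against 4.04 and 7.25 CPM in the other CFA vehicle mice and 1595 CPM against 15.2 and 379 CPM in the other Col vehicle mice. The 11 libraries of 10U Col differed as a set from the other 20: the share of reads called ambiguous was 0.331 to 0.399% against 0.0758 to 0.138%, and 11 genes were more than 5-fold higher in each of these 11 libraries than in any other, while 2 genes were so in each of the other 20. A comparison of 10U Col with vehicle crosses this difference, which cannot be told apart from the treatment, whereas comparisons between days of 10U Col lie inside it.

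In mouse build mm9, Cx3cr1 lies on the minus strand at chr9:119957811-119977400, Cx3cl1 on the plus strand at chr8:97295909-97306323 and Cd68 on the minus strand at chr11:69477715-69479655. Aif1 lies at chr17:35307936-35313013 (minus), Emr1 at chr17:57498109-57622952 (plus), Mpeg1 at chr19:12535269-12539774 (plus) and Lyz2 at chr10:116714390-116719377 (minus). The count on Lyz2 is less certain, since 15.4% of the 50-base windows of its transcripts also occur in its neighbour Lyz1. The promoters of the receptor, of the ligand and of Cd68, which like Aif1 overlapped between 2d and 6d post-Col (10U) where Cx3cr1 did not, are printed so that they can be set beside each other. Each is the 250 bases before the start of the gene in RefSeq (table of build GRCm38.p6), 5′ to 3′ in the direction of transcription, and was found once in mm9, at chr9:119977415-119977664 (minus), chr8:97295830-97296079 (plus) and chr11:69479673-69479922 (minus). The interval of Cx3cl1 given above, from another annotation, starts before the RefSeq start. The marked sites in the Cx3cl1 window therefore fall inside that interval. Capitals mark GAGGAA, the core of sites bound by PU.1, a transcription factor of myeloid cells, on either strand (TTCCTC on the opposite one), and TGAGTCA, the letters of AP-1 sites.
Cx3cr1: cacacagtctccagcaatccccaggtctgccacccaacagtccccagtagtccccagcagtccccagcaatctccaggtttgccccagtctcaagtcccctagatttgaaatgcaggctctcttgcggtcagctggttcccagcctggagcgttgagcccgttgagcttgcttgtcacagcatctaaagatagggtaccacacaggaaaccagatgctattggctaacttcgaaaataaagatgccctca
Cx3cl1: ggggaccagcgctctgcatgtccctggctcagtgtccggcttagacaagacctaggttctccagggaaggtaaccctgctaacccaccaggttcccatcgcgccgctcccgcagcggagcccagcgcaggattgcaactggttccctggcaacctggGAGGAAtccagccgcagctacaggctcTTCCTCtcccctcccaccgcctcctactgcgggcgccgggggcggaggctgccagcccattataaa
Cd68: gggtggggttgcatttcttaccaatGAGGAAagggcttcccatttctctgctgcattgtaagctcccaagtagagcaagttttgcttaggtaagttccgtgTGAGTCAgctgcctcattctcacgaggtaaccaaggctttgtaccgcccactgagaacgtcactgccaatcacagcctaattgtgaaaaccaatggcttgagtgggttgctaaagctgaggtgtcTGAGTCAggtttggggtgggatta
GAGGAA was found in 3 of the 6 promoters with an entry (Cx3cl1, Cd68 and Aif1; Emr1 has none) and in 23.3% of 32851 promoters of the same length. TGAGTCA was found in Cd68 alone among the 6, where it occurred at 2 places, and in 4.5% of all promoters. The consensus of NF-kB sites was found in none of the 6 and in 0.4% of all promoters, and TATAAA in Cx3cl1 alone and in 12.4%. Both strands were searched, these motifs do not overlap each other, and the matches are a description of these windows.

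The changes were largest at 6d post-Col (10U), where 6 of the 7 rose against vehicle and Cx3cl1 did not pass the test. None of the 7 passed at the other 6 comparisons with vehicle, although most values lay above vehicle. Between days of 10U Col, 3 genes rose from 2d to 6d and 3 fell from 6d to 12d. The fold changes and their standard errors are shown in the plot by comparison. All p-values are from edgeR's quasi-likelihood test with Benjamini-Hochberg adjustment over all genes tested, with 0.05 as the threshold. With 1 mouse per library, they set the difference between groups against the spread between mice.

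**Figure D1:**
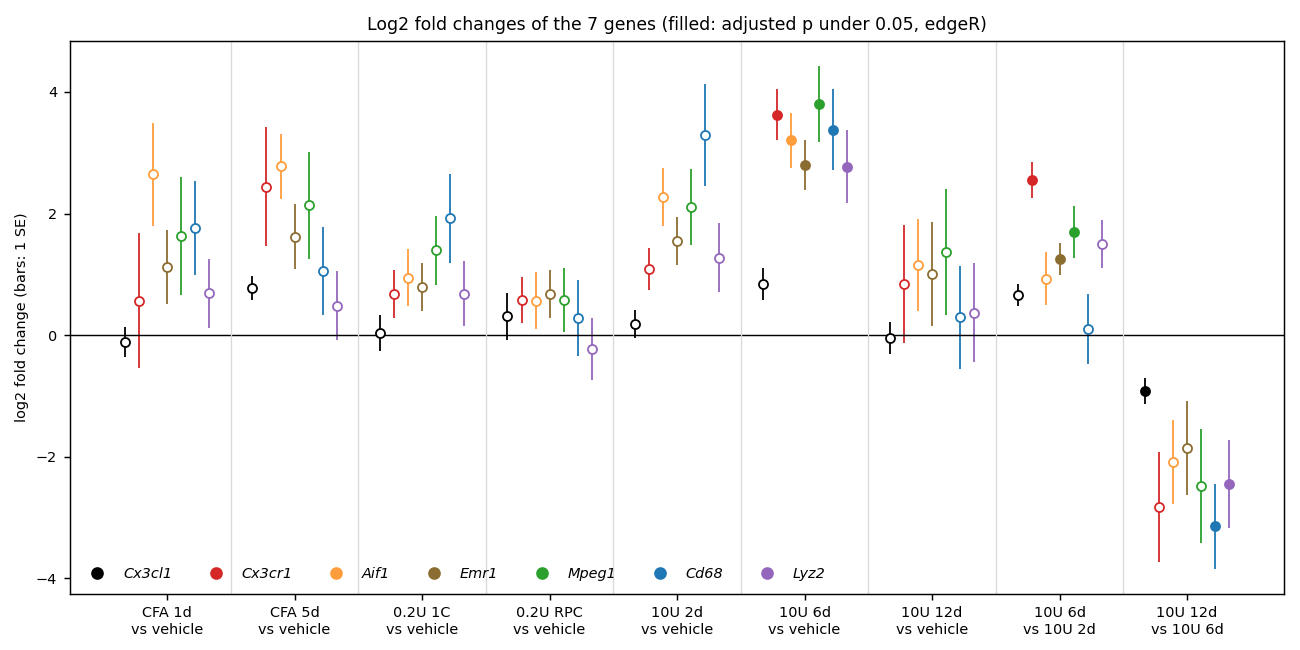
Log2 fold change (vertical axis) of each of the 7 genes in 9 comparisons (horizontal axis), with bars of 1 SE from edgeR. Filled points passed the test at an adjusted p of 0.05 and open points did not: 6 are filled at 6d post-Col (10U) against vehicle, 3 at 6d against 2d and 3, all below 0, at 12d against 6d.

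Cx3cr1, the receptor, was at 2.31, 3.13 and 5.01 CPM in the 3 Col vehicle mice and at 9.38, 7.92, 7.29 and 6.00 CPM at 2d post-Col (10U). At 6d it was at 40.9, 64.8 and 26.6 CPM. At 12d it was at 2.12, 1.04, 2.15 and 19.0 CPM. The 6d mice were above every other mouse of the study, the 2d mice were above all vehicle mice, and at 12d a single mouse, replicate 4, was far above the other three. The mean at 6d was 44.1 ± 19.3 CPM (SD, n = 3) against 3.48 ± 1.39 CPM (SD, n = 3) in vehicle, a 12.3-fold rise (log2 fold change 3.62, SE 0.42, edgeR adjusted p = 0.00292). At 2d the fold was 2.12 (log2 fold change 1.09, SE 0.34), which did not pass the test (edgeR adjusted p = 0.0829). From 2d to 6d Cx3cr1 rose 5.84-fold (log2 fold change 2.55, SE 0.29, edgeR adjusted p = 0.00497), and the groups did not overlap. From 6d to 12d the log2 fold change was -2.83 (SE 0.90, edgeR adjusted p = 0.0528). Without replicate 4 of the 12d group it fell by 4.61 on the log2 scale (SE 0.39, edgeR adjusted p = 0.000347). With this mouse kept, the fall missed the threshold in edgeR but passed with DESeq2 (adjusted p = 0.0257). The outcome thus depended on this mouse and on the test used.

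In the CFA experiment Cx3cr1 was at 0.162, 0.684 and 4.38 CPM in the vehicle mice, which were 4, 15 and 119 reads. At 1d post-CFA it was at 3.07, 0.667 and 4.24 CPM, and at 5d at 11.9, 6.26 and 10.2 CPM. The 1d mice lay within the vehicle range, and all 5d mice lay above it. At 5d the fold was 5.44 (log2 fold change 2.44, SE 0.97) and did not pass the test (edgeR adjusted p = 0.32). Without vehicle replicate 3, which stood apart in its neutrophil markers and in which Cx3cr1 was highest of the vehicle mice, the log2 fold change was 4.58 (SE 0.55, edgeR adjusted p = 0.000578). Over the fits with 1 mouse left out it ranged from 1.89, without vehicle replicate 1, to 4.58. The edgeR adjusted p ranged from 0.000578 to 0.666 in these fits. After 0.2U Col, Cx3cr1 was at 3.67, 5.92, 8.23 and 4.42 CPM in 1C and at 3.78, 7.11, 6.16 and 3.82 CPM in RPC. Both groups overlapped with vehicle and their folds of 1.60 and 1.49 did not pass the test (edgeR adjusted p = 0.501 and 0.514).

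Cx3cl1, the ligand, varied less than its receptor between groups. It was at 9.28, 16.4 and 9.67 CPM in the Col vehicle mice, at 12.2, 14.99, 13.6 and 13.7 CPM at 2d and at 18.9, 27.2 and 17.9 CPM at 6d post-Col (10U). At 12d it was at 8.80, 9.72, 12.0 and 13.8 CPM. The 3 mice at 6d were above all other 10U and vehicle mice. The log2 fold change at 6d against vehicle was 0.84 (SE 0.27), which missed the threshold (edgeR adjusted p = 0.0505). It passed with DESeq2 (adjusted p = 0.0244) and in the fit without vehicle replicate 2, the highest vehicle mouse, where it was 1.11 (edgeR adjusted p = 0.0238). Without vehicle replicate 3 it was 0.72 (edgeR adjusted p = 0.0955), and without 6d replicate 2 it was lowest, at 0.66. Over the fits with 1 mouse left out the edgeR adjusted p ranged from 0.0238 to 0.185. From 6d to 12d Cx3cl1 fell by 0.92 on the log2 scale (SE 0.21, edgeR adjusted p = 0.0217).

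After CFA, Cx3cl1 was at 7.75, 11.4 and 10.6 CPM in the vehicle mice, at 10.2, 9.34 and 8.26 CPM at 1d and at 17.1, 15.8 and 16.4 CPM at 5d. The 5d mice were all above the vehicle mice and close to each other (mean 16.4 ± 0.60 CPM, SD, n = 3), but the log2 fold change of 0.77 (SE 0.20) did not pass the test (edgeR adjusted p = 0.127). The salivary gland markers also differed between these groups, without overlap. Their summed level was 52720 to 71110 CPM at 5d post-CFA against 71.7 to 7917 CPM in vehicle. In the fit shared by all libraries with the salivary score as covariate, the log2 fold change of Cx3cl1 was 0.54 (SE 0.34, edgeR adjusted p = 0.955). That fit differs from the fit of 5d and vehicle alone in its libraries as well as in the score. At 6d post-Col (10U) these markers summed to 10.8 to 31.7 CPM, the lowest levels of any group. The part of gland tissue in the level of Cx3cl1 was not tested for either group. After 0.2U Col, Cx3cl1 ranged from 8.68 to 15.7 CPM in 1C and from 8.11 to 24.8 CPM in RPC, and both groups overlapped with vehicle. The RPC mouse at 24.8 CPM, replicate 3, was the second highest of all 31 mice for Cx3cl1, yet its Cx3cr1 of 6.16 CPM was like that of the rest of its group.

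Set against each other per transcript length (RPKM), the ligand exceeded the receptor in 27 of the 31 mice and fell below it in the 3 mice at 6d post-Col (10U), where the ratio of ligand to receptor was 0.422 to 0.675, and in replicate 4 at 12d, where it was 0.732. In the Col vehicle mice this ratio was 1.94 to 5.26 and at 2d it was 1.31 to 2.30. Across the 31 mice the Pearson correlation of log2 CPM between Cx3cr1 and Cx3cl1 was 0.679, and 0.298 after the group means were subtracted, mice of a group sharing treatment and day. The scatter of ligand and receptor shows the 6d mice at its upper right.

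**Figure D2:**
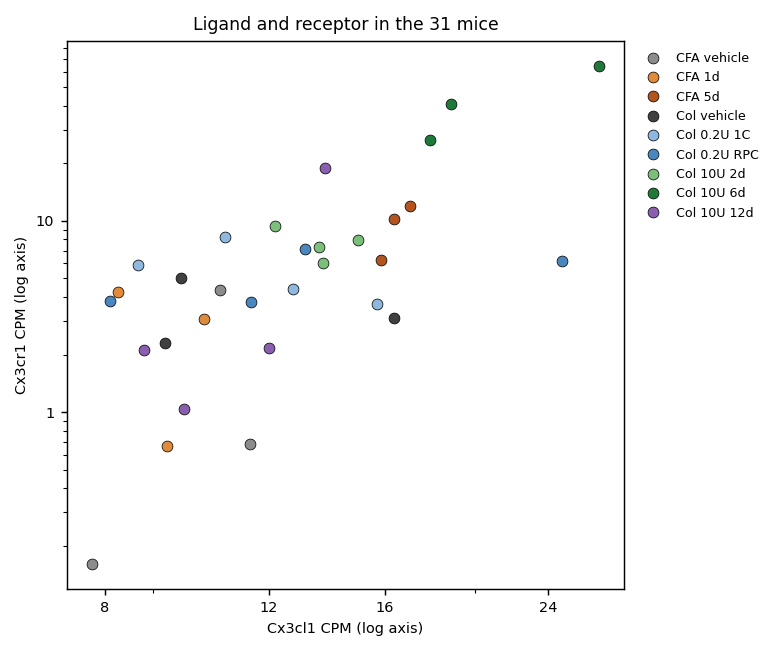
Cx3cr1 CPM (vertical log axis) against Cx3cl1 CPM (horizontal log axis), 1 point per mouse, coloured by group. The 3 mice at 6d post-Col (10U) have Cx3cr1 of 26.6 to 64.8 CPM, above all others, and Cx3cl1 spans 7.75 to 27.2 CPM.

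Cd68, the lysosomal marker, was high early. It was at 7.89, 1.80 and 14.3 CPM in the Col vehicle mice, at 91.6, 88.1, 132 and 18.0 CPM at 2d and at 82.7, 126 and 53.3 CPM at 6d post-Col (10U). At 12d it was at 4.67, 3.55, 5.33 and 25.2 CPM. All 2d and 6d mice were above vehicle and overlapped with each other, and replicate 4 was apart from its group both at 2d, on the low side, and at 12d, on the high side. At 6d Cd68 rose 10.4-fold against vehicle (log2 fold change 3.38, SE 0.67, edgeR adjusted p = 0.0138). At 2d the fold was almost as large, 9.77, but did not pass (log2 fold change 3.29, SE 0.84, edgeR adjusted p = 0.062). Without replicate 4 of the 2d group it passed (log2 fold change 3.62, SE 0.66, edgeR adjusted p = 0.00674). That mouse had 65090 CPM of salivary gland markers, the most in its group, against 41.3 to 37120 CPM in the others, and 47.2 CPM of bone markers against 103 to 175 CPM. Between 2d and 6d the log2 fold change of Cd68 was 0.10 (SE 0.58, edgeR adjusted p = 0.936), and from 6d to 12d it fell by 3.15 on the log2 scale (SE 0.69, edgeR adjusted p = 0.0204).

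In the other groups Cd68 overlapped with vehicle. It was at 1.57, 6.20 and 10.9 CPM in the CFA vehicle mice, at 39.0, 7.16 and 18.7 CPM at 1d post-CFA and at 20.6, 5.06 and 12.3 CPM at 5d. It ranged from 10.5 to 53.6 CPM in 1C, the widest difference from vehicle after 0.2U Col (3.79-fold, edgeR adjusted p = 0.357), and from 6.82 to 15.7 CPM in RPC.

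The level of the receptor relative to Cd68 within each mouse was lower at 2d than at 6d. Cx3cr1 per Cd68, as a ratio of CPM, was 0.102, 0.0899, 0.0554 and 0.334 at 2d and from 0.494 to 0.514 in the 3 mice at 6d. The 6d mice were within this narrow range and above each 2d mouse. The ratio to Mpeg1 did not overlap between the days either, at 0.0459 to 0.124 at 2d and 0.129 to 0.143 at 6d, whereas the ratio to Emr1 overlapped, at 0.241 to 0.590 and 0.587 to 0.942. Cd68 per Emr1 was itself higher in most 2d mice, at 0.721 to 5.76 (median 4.22) against 1.18 to 1.90 (median 1.68) at 6d. A like order of Cx3cr1 per Cd68 was seen after CFA, with 0.0786 to 0.227 at 1d and 0.578 to 1.24 at 5d. This ratio spread widely in the vehicle mice, from 0.103 to 0.401 in the CFA experiment and from 0.293 to 1.74 in the Col experiment, where counts of both genes were low. No test was run on the ratios.

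**Figure D3:**
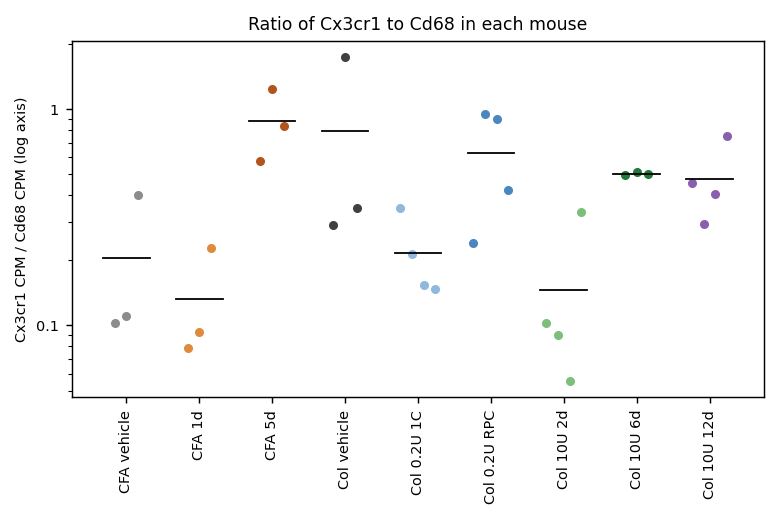
Ratio of Cx3cr1 CPM to Cd68 CPM (vertical log axis) in each mouse by group (horizontal axis); points are mice and lines are group means. The 2d mice after 10U Col lie between 0.0554 and 0.334 and the 6d mice between 0.494 and 0.514.

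The other 4 macrophage genes rose with the receptor at 6d post-Col (10U). Mpeg1 was at 302, 453 and 206 CPM at 6d against 12.3, 10.6 and 43.6 CPM in vehicle, a 13.9-fold rise (log2 fold change 3.80, SE 0.63, edgeR adjusted p = 0.00828) and the largest of the 7. Aif1 was at 13.8, 21.4 and 7.55 CPM against 1.44, 2.20 and 0.985 CPM, a 9.21-fold rise (log2 fold change 3.20, SE 0.45, edgeR adjusted p = 0.00516). Emr1 was at 43.4, 75.0 and 45.4 CPM against 10.1, 3.66 and 9.04 CPM, a 6.95-fold rise (log2 fold change 2.80, SE 0.41, edgeR adjusted p = 0.00558). For these genes the 6d and vehicle mice did not overlap. Lyz2 was at 1001, 1402 and 688 CPM against 137, 49.0 and 252 CPM, a 6.82-fold rise (log2 fold change 2.77, SE 0.60, edgeR adjusted p = 0.0175). Lyz2 was the least secure of the 6, since it missed the threshold without vehicle replicate 1 or without 6d replicate 1 or 2 (edgeR adjusted p = 0.0538 to 0.063), and Cd68 missed it without 6d replicate 2 (adjusted p = 0.0544). The neutrophil markers, cells that also make Lyz2, summed to 14.3 to 18.6 CPM at 6d against 15.2 to 1595 CPM in vehicle.

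**Figure D4:**
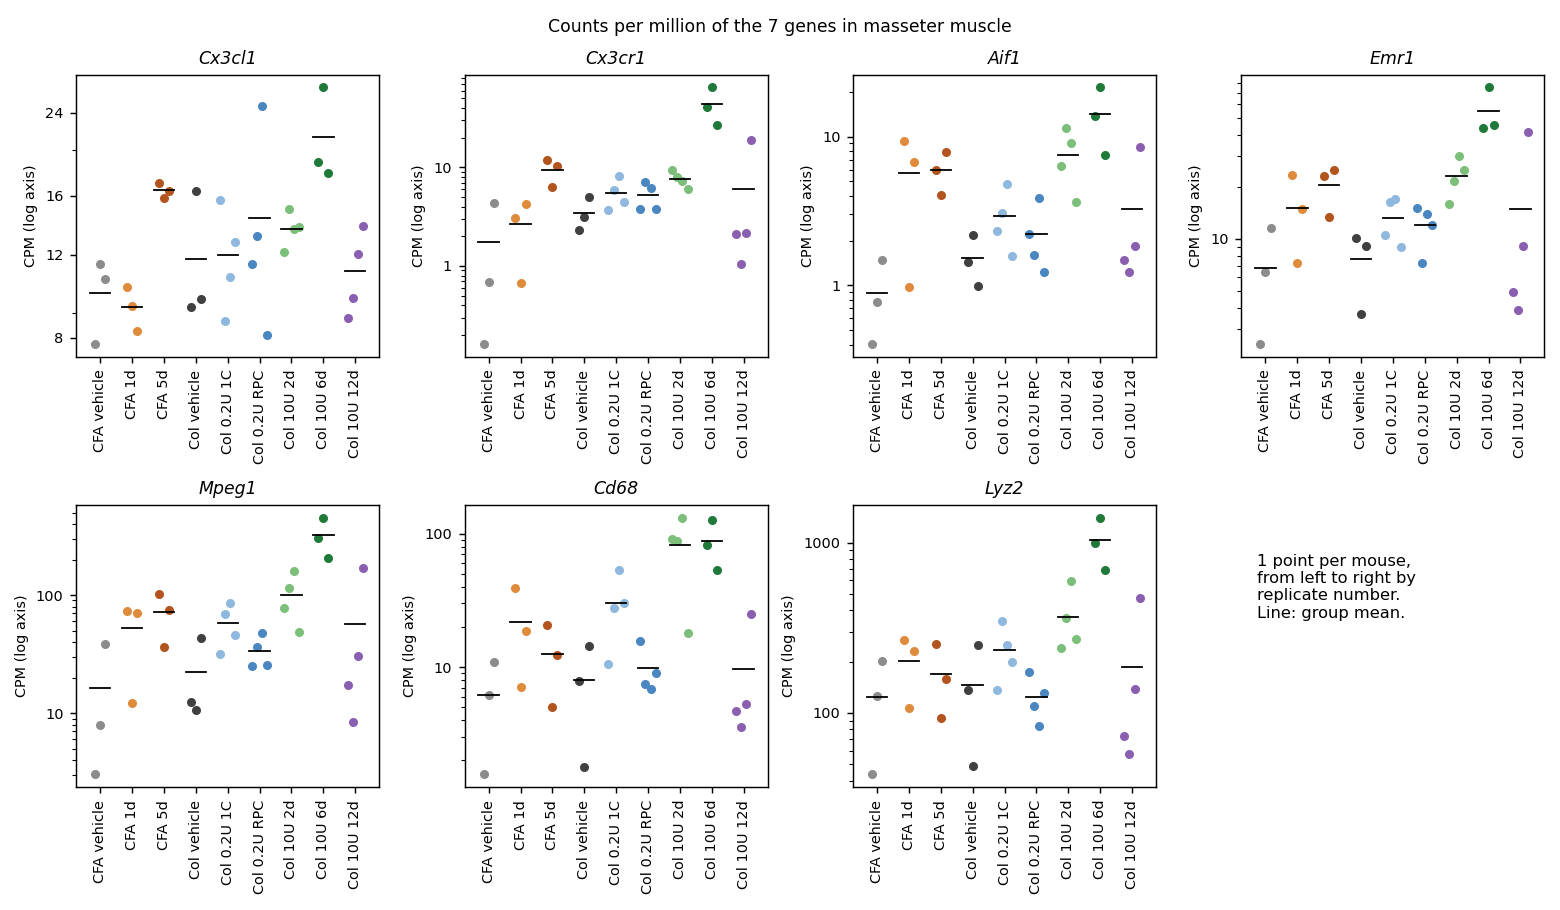
CPM of each gene (vertical log axes, 1 panel per gene) in the 9 groups (horizontal axes), 1 point per mouse from left to right by replicate number, with a line at the group mean. Cx3cr1 reaches 26.6 to 64.8 CPM at 6d post-Col (10U), Cd68 is as high at 2d as at 6d apart from 1 mouse at 18.0 CPM, and replicate 4 at 12d lies above its group for the macrophage genes.

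With 6 of 7 genes called higher at 6d post-Col (10U), the background was 14% of 14281 genes called higher. The groups did not overlap for 7 of 7, against 26% of all genes with all 6d mice above vehicle. The median log2 fold change of the 7 was 3.20 against 0.01 over all genes. All 7 were called with DESeq2, in the shared fit of all libraries and in that fit with the salivary score, where 5086, 5033 and 3552 genes were called in all against 3900 here. With a replicate block 5 of the 7 were called, with 1473 genes called in all, and 4 to 7 were called when 1 mouse was left out. Without vehicle replicate 3 the log2 fold change was larger for Mpeg1 (4.77), Cd68 (4.09), Cx3cr1 (4.002), Lyz2 (3.42) and Emr1 (2.93). It was smaller for Aif1 (2.96) and Cx3cl1 (0.72). Of 6 keratinocyte markers 6 fell, and they summed to 17.7 to 21.4 CPM at 6d against 56.3 to 154 CPM in vehicle. Of 5 bone markers tested 3 fell (3.97 to 31.8 CPM against 13.1 to 170 CPM), and of 3 salivary gland markers tested 3 fell (10.8 to 31.7 CPM against 65.7 to 55350 CPM for the whole list). Skeletal muscle markers, 2 of 8 of which fell, and the difference between sets of libraries given above also moved with this comparison. The part of the keratinocyte, bone and muscle markers and of that difference in the result was not tested.

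Other genes of these pathways moved in the same comparison. Of 19 further monocyte and macrophage markers, 16 rose and 1 fell, and the median of their log2 fold changes was 2.49, beside 0.01 for all genes. Among the largest were Ctss, a lysosomal protease that can also cleave fractalkine from the membrane (log2 fold change 4.07), Fcgr1, the high-affinity IgG receptor (3.90), and Msr1, a scavenger receptor (3.80), all with an edgeR adjusted p of at most 0.0172. Of 9 genes for fractalkine release and signalling, 6 rose: Ctss, Adam10 (log2 fold change 0.86, edgeR adjusted p = 0.0325), Adam17 (0.74, edgeR adjusted p = 0.0138), Gnai2 (0.65), which encodes an inhibitory G protein subunit, and the integrin genes Itgb1 (0.94) and Itgav (0.82). Among 7 tested markers of resident-type macrophages, Mrc1, the mannose receptor, rose (1.54) and Timd4, a receptor for dying cells, fell (-2.29). Among 8 classical monocyte genes, the matrix genes Vcan (3.995) and Fn1 (2.89) and Ccr2, the receptor that draws monocytes from blood (2.33, edgeR adjusted p = 0.0269), rose and Chi3l3 fell (-5.61). Of 6 patrolling monocyte genes, the cells in which Cx3cr1 is most abundant, none was called higher, and Nr4a1 (-2.67) and Cd36 (-0.84) were called lower. The rest of this list was not called in either direction. Bulk RNA of muscle does not show from which cells the falls of Nr4a1 and Cd36 came. Whether the number of patrolling monocytes changed was not tested. Of 6 dendritic cell genes 4 rose, Itgax the most (3.21), and of 8 endothelial genes Vwf and Tek fell and none rose. Of 8 tested neutrophil genes 6 fell. The summed level of the neutrophil markers differed widely among the vehicle mice, and at 6d it was near that of the lowest vehicle mouse. Whether the number of neutrophils changed was not tested. Over all genes, 13.3% were called lower in this comparison.

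At 2d post-Col (10U) none of the 7 genes passed the test, against 1.14% of 14373 genes called higher, 4781 genes (33.3%) at an unadjusted p under 0.05 (5 of the 7 among them) and 5 of the 7 called with DESeq2, which called 3326 genes in all. In 5 of 7 (Cx3cr1, Aif1, Mpeg1, Cd68 and Emr1) all 2d mice were above all vehicle mice, against 13.4% of all genes. Aif1 was at 3.65 to 11.3 CPM (4.83-fold, edgeR adjusted p = 0.0506), Mpeg1 at 48.4 to 159 CPM (4.31-fold, edgeR adjusted p = 0.0742) and Emr1 at 15.9 to 30.0 CPM (2.93-fold, edgeR adjusted p = 0.062). Lyz2, at 241 to 597 CPM, and Cx3cl1 overlapped with vehicle. Without 2d replicate 4 these 5 genes passed, with 5143 genes called in all, and without vehicle replicate 3 only Mpeg1 did. Of the 19 macrophage markers 2 rose, Fcgr1 among them (log2 fold change 3.46, edgeR adjusted p = 0.043).

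From 2d to 6d, 3 of 7 genes rose, Cx3cr1, Mpeg1 and Emr1, against 4.68% of 14513 genes called higher. Mpeg1 rose 3.24-fold (log2 fold change 1.70, SE 0.42, edgeR adjusted p = 0.0475) and Emr1 2.38-fold (log2 fold change 1.25, SE 0.27, edgeR adjusted p = 0.033). Lyz2 (2.82-fold, edgeR adjusted p = 0.0537) and Cx3cl1 (1.58-fold, edgeR adjusted p = 0.0616) did not overlap between the days but missed the threshold, and Aif1 (1.91-fold) overlapped. For 5 of 7 the groups did not overlap, against 11.6% of all genes. Cx3cr1 was called in each fit without 1 mouse (edgeR adjusted p = 0.00152 to 0.0267), whereas Mpeg1 and Emr1 were lost in 5 of these 7 fits. Salivary gland markers differed between these days, at 41.3 to 65090 CPM at 2d and 10.8 to 31.7 CPM at 6d, and neutrophil markers at 92.0 to 394 CPM and 14.3 to 18.6 CPM. With the salivary score as a covariate in the shared fit the log2 fold change of Cx3cr1 was 3.11 (SE 0.92, edgeR adjusted p = 0.07) and none of the 7 passed. Of the 19 macrophage markers, Cybb, C1qc, Cd84 and Csf1r, the receptor for the main growth factor of macrophages (log2 fold change 1.19, edgeR adjusted p = 0.0411), rose.

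At 12d post-Col (10U) none of the 7 genes passed against vehicle, where 0.762% of 14176 genes were called higher and 2461 genes (17.4%) had an unadjusted p under 0.05, none of the 7 among them. All 7 overlapped with vehicle, where 9.16% of all genes had all 12d mice above, and DESeq2 called none either. Replicate 4 held 170 CPM of Mpeg1 against 8.44 to 30.3 CPM in the other 3 mice, 41.7 CPM of Emr1 against 3.85 to 9.10 CPM, 8.55 CPM of Aif1 against 1.22 to 1.83 CPM and 476 CPM of Lyz2 against 57.7 to 138 CPM. Its macrophage markers summed to 1146 CPM against 297 to 493 CPM, its bone markers to 226 CPM against 50.3 to 62.0 CPM and its neutrophil markers to 149 CPM against 15.03 to 81.2 CPM. Without it, the log2 fold changes against vehicle were between -0.96 (Cx3cr1) and 0.02 (Aif1). From 6d to 12d, 3 of 7 genes fell, Cx3cl1, Cd68 and Lyz2 (log2 fold change -2.45, SE 0.72, edgeR adjusted p = 0.0422), against 13% of 14344 genes called lower. All 12d mice were below all 6d mice for 6 of 7, against 18.7% of all genes. Without replicate 4 all 7 fell (edgeR adjusted p = 0.000338 to 0.00288), Cd68 by 4.26 and Lyz2 by 3.51 on the log2 scale, and without any one of 12d replicates 1 to 3 or of 6d replicates 1 and 2 none passed. Of the 19 macrophage markers, 9 fell, led by C1qa, C1qb, Fcer1g and Itgam.

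After CFA none of the 7 genes passed the test at either day. At 1d no gene among 13944 was called by edgeR (0%), 588 (4.22%) had an unadjusted p under 0.05 (Aif1 alone among the 7), and DESeq2 called none of the 7. Aif1 was at 9.29, 0.978 and 6.79 CPM against 0.404, 0.775 and 1.47 CPM in vehicle, a log2 fold change of 2.65 (SE 0.85, edgeR adjusted p = 0.924). Replicate 2 at 1d was the lowest of its group for all macrophage genes, with 12.2 CPM of Mpeg1 against 74.0 and 70.6 CPM and 7.25 CPM of Emr1 against 23.3 and 14.8 CPM. All 7 genes overlapped with vehicle, where 3.05% of all genes had all 1d mice above. At 5d, 1.06% of 14026 genes were called higher, and 4 of the 7 (Cx3cr1, Cx3cl1, Aif1 and Emr1) had all 5d mice above vehicle, against 12.8% of all genes. Aif1 was at 5.99, 4.07 and 7.82 CPM (6.85-fold, edgeR adjusted p = 0.0664) and Emr1 at 23.1, 13.3 and 25.1 CPM against 2.46, 6.43 and 11.5 CPM (3.08-fold, edgeR adjusted p = 0.228). DESeq2 called 3 of the 7 at 5d, Aif1, Cx3cl1 and Emr1, and 899 genes in all. Without vehicle replicate 3, edgeR called 5 (Cx3cr1, Cx3cl1, Aif1, Mpeg1 and Emr1) and not Cd68 or Lyz2, with 2162 genes called in all. With any other mouse left out it called none of the 7. None of the 19 macrophage markers was called at either day, and their median log2 fold change was 1.26 at 1d and 0.99 at 5d.

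After 0.2U Col none of the 7 genes was called in either group, none of 14493 and 14269 genes was called by edgeR (0% in each), and DESeq2 called none of the 7. An unadjusted p under 0.05 was reached by 1819 genes (12.6%) in 1C, Cd68 and Mpeg1 among them, and by 1923 genes (13.5%) in RPC, none of the 7 among them. All 7 overlapped with vehicle in both groups, where 4.22% and 4.79% of all genes had all mice of the group above vehicle. Mpeg1 was at 31.5 to 85.6 CPM in 1C (2.63-fold, edgeR adjusted p = 0.38) and at 24.8 to 48.0 CPM in RPC (log2 fold change 0.58). The salivary gland markers reached 11790 to 146600 CPM in RPC, and in the shared fit with the salivary score the log2 fold changes of the 7 were between -0.14 (Lyz2) and 0.71 (Emr1) and none passed (edgeR adjusted p = 0.756 to 0.962).

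Whether a gene changed by a different amount after CFA than after 10U Col was tested as an interaction, each against its own vehicle. None of the 7 passed for 1d post-CFA against 2d post-Col, where 0.0946% of 14794 genes were called in either direction, nor for 5d post-CFA against 6d post-Col, where 11.3% of 14892 genes were. In the second test the largest differences were those of Cd68 (log2 difference -2.33, SE 1.09, edgeR adjusted p = 0.181) and Lyz2 (-2.29, SE 0.91, edgeR adjusted p = 0.126), both smaller after CFA, and Lyz2 passed with DESeq2 (adjusted p = 0.0351). The unadjusted p was under 0.05 for none of the 7 in the first test, against 6.83% of all genes, and for Lyz2 alone in the second, against 28.9%.

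The genes whose log2 CPM followed Cx3cr1 most closely over the 31 libraries, among 13510 genes with a mean of at least 1 CPM, were Lpcat2 (Pearson r = 0.941), Arap1 (0.933), Mpeg1 (0.930), Gpr65 (0.928) and Myof (0.917). After the group means were subtracted they were Mpeg1 (0.933), Rassf5, Ms4a7, Lpcat2 and Gpr65. Mpeg1 was thus the member nearest to the receptor in both measures, ahead of Emr1 (0.864 over all libraries), Aif1 (0.834), Lyz2 (0.795) and Cd68 (0.730). The nearest to Cd68 were Adam8 (0.962), Inpp5d, Cotl1, Arl11 and Apbb1ip over all libraries and Tbxas1 (0.954), Msr1, Arl11, Adam8 and Dab2 within groups. The nearest to Cx3cl1 were less close, Eef1a1 (0.822), Arhgdig, Txndc5, Traf4 and Cxcl16 over all libraries and Pvrl2 (0.888), Tbc1d13, Zdhhc9, Decr2 and Tmem106c within groups, and none of them was a member. These correlations describe libraries that share treatment and day, and no test was made of them.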

How the data were processed

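Bulk RNA-seq of masseter muscle was analysed from 31 count tables, 1 per mouse. The authors prepared stranded poly(A) libraries, sequenced 50-base single-end reads and aligned them to mm9 with TopHat2, and the submitters' processing notes also name bcl2fastq and HTSeq (versions and counting settings are not given in the sources used here). The deposited values are raw counts of reads per gene symbol, not normalized or filtered. The closing lines of each table (no feature, ambiguous, not unique) were kept out of library sizes and tests. Not-unique reads came to 34.6 to 47.9% and reads on no feature to 3.94 to 12.1% in these lines, so reads shared by gene copies are missing from the counts.

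A gene was tested where 3 or more of the libraries compared held 10 or more of its reads, with edgeR 4.0.16 in R 4.3.3 (TMM, quasi-likelihood test, Benjamini-Hochberg adjustment over all genes tested), each group against the vehicle mice of its own experiment, fitted on these libraries alone. Standard errors were taken from the size of the log2 fold change over the root of its F statistic. RPKM used exon lengths of GENCODE vM1 on mm9, to which 21627 symbols matched directly and 87 by a synonym. Correlations used log2 CPM with a prior count of 0.5. The scripts were tested on simulated data.

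No pair of libraries among 465 held identical values (highest correlation 0.995). Groups and replicate numbers came from the sample titles. Same-numbered mice are different animals. Neither the titles nor the methods state a pairing. The deviations of same-numbered mice from their group means correlated above 0.1 in each pair between 1d post-CFA and vehicle (r = 0.190 to 0.606). A replicate block gave 0 calls among the 7 genes there, as did the fit without it. This cannot show whether a pairing matters, since none of 13944 genes was called there without the block. The alternatives were DESeq2 1.42.0, its size factors used within edgeR, no filter on low counts, added fold and RPKM thresholds, a fit shared by all libraries with and without a salivary gland score, pooled vehicles, a replicate block and each mouse left out. The 7 genes and all marker lists were chosen with earlier results of these data known. All 7 are named in each comparison, and of each list the up to 4 largest changes among those that passed. Adam17 and Gnai2 fall outside this rule and were named after their values were seen. Some genes that passed are not reported here.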

Additional observations from a re-analysis of the deposited data

Results flagged for a closer look

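In the 12d group after 10U Col, 1 of the 4 mice, replicate 4, was far from the other three for 5 genes. Dixon's ratio, the gap between the highest mouse and its nearest neighbour divided by the whole range of the group, was 0.938 for Cx3cr1, 0.917 for Aif1, 0.865 for Mpeg1, 0.918 for Cd68 and 0.861 for Emr1, each above Dixon's critical value for groups of 4. The 7 genes in the 4 groups of 4 mice gave 28 such ratios, of which 5 passed. The ratios were taken on CPM, whereas the critical value passes about 1 in 20 by chance only for normally distributed values. That rate is therefore not known for these ratios, which describe the spread on the CPM scale. Ratios on the log2 scale were not tested. All 5 are from the same mouse and are not independent. Its Cx3cr1 of 19.0 CPM was still below the lowest mouse at 6d, 26.6 CPM, and its ratio of Cx3cr1 to Cd68 was 0.752, the highest of its group. The values of its other markers are given with the 12d comparison, and their part was not tested.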

How the results depend on the processing

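The count of the 7 genes called stayed within 1.5 times under the size factors of DESeq2, without a filter on low counts and with the added fold and RPKM thresholds in all 11 comparisons. DESeq2 called 3 at 5d post-CFA, 5 at 2d post-Col (10U), 5 from 2d to 6d, 6 from 6d to 12d and 1 in the interaction of 5d post-CFA with 6d, with 899, 3326, 2707, 5375 and 2764 genes called in all against 155, 319, 1267, 3785 and 1684 in edgeR. The shared fit called 2 at 2d, 1 from 2d to 6d and 7 from 6d to 12d, with 4943, 1810 and 3210 genes in all, and with the salivary score 2, 0 and 7, with 4880, 413 and 3231. Pooled vehicles gave 5 at 2d, of 5043 genes. The replicate block, for which neither the titles nor the methods state a pairing, gave 4 at 2d, of 4500 genes, and 7 from 6d to 12d, of 7056. With 1 mouse left out the counts ranged from 0 to 5 at 5d post-CFA, 0 to 5 at 2d, 1 to 5 from 2d to 6d and 0 to 7 from 6d to 12d. The cause of these shifts was not tested.

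Signs turned only for values that had not passed the test. The block gave log2 fold changes of 0.018 for Lyz2 in RPC, -0.28 for Cd68 from 2d to 6d and, at 12d against vehicle, -0.93 for Cx3cr1, -0.10 for Mpeg1, -0.49 for Lyz2, -0.47 for Cd68 and -0.30 for Emr1. Cx3cl1 at 12d against vehicle was 0.046 with the salivary score and 0.056 with pooled vehicles. With 1 mouse left out, values at 12d against vehicle ranged from -0.96 to 1.24 for Cx3cr1, -0.20 to 0.23 for Cx3cl1, -0.25 to 2.38 for Mpeg1, -0.71 to 1.07 for Lyz2, -0.84 to 1.06 for Cd68 and -0.35 to 1.30 for Emr1. They ranged in RPC from -0.19 to 1.05 for Cd68, -0.080 to 0.59 for Cx3cl1 and -0.66 to 0.47 for Lyz2, in 1C from -0.11 to 0.34 for Cx3cl1, at 1d post-CFA from -0.26 to 0.012 for Cx3cl1, and from 2d to 6d from -0.24 to 0.45 for Cd68. In the interaction of 1d post-CFA with 2d they ranged from -0.077 to 0.996 for Aif1, -1.01 to 1.57 for Cx3cr1, -0.82 to 0.21 for Emr1 and -1.40 to 1.12 for Mpeg1, and in that of 5d post-CFA with 6d from -0.86 to 0.23 for Aif1, -0.43 to 0.13 for Cx3cl1 and -1.79 to 0.97 for Cx3cr1. Depth limits Cx3cr1 and Aif1 in the CFA vehicle mice, where Cx3cr1 had 4 reads in 1 library. Groups of 3 or 4 mice leave wide errors.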
